A study of Mus musculus with 6 samples.

Results

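The NMDA receptor subunit genes were followed in whole cerebellum of mice at postnatal day 6, in wild type animals and in animals lacking SnoN conditionally (SnoN cKO). The 6 genes were chosen by symbol: Grin1, Grin2a, Grin2b, Grin2c, Grin2d and Grin3a. They are 6 of the 40568 genes in the count table once repeated entries were kept a single time. All 6 were detected in every library, and all 6 passed the filter on low counts, which left 15457 genes for testing.

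NMDA receptors are glutamate-gated ion channels assembled as tetramers. Every receptor contains GluN1, the product of Grin1, which binds the co-agonist glycine or D-serine. GluN1 is joined by GluN2 subunits, which bind glutamate and set how long the channel stays open and how strongly magnesium blocks it, or by GluN3 subunits, which lower calcium entry. In the rodent cerebellum GluN2B (Grin2b) dominates in immature granule neurons, and GluN2A (Grin2a) and then GluN2C (Grin2c) take over as these cells mature and receive mossy fibre input. GluN2D (Grin2d) is known from early Purkinje cells, Golgi cells and the deep nuclei, and GluN3A (Grin3a) is a subunit of early postnatal brain.

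The libraries came from total RNA of C57BL/6 cerebellum at 6 days of age, 3 from wild type mice and 3 from SnoN cKO mice, sequenced as single-end reads. SnoN is encoded by Skil and belongs to the Ski family of transcriptional regulators, which bind Smad proteins. The sources used here do not give the Cre driver, the deleted exons, the cells in which Skil was deleted or the alleles carried by the wild type animals. Nor do the labels say whether the animals came from separate litters, so the p-values measure the spread between these libraries only. The labels placed 1 female and 2 males in each genotype.

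Counts summed to between 12605870 and 17757711 per library. The sex-linked genes went against the labelled sex in SnoN cKO 1 and SnoN cKO 2: Xist had 35 counts in the former, labelled female, and 37467 in the latter, labelled male. Ddx3y, on the Y chromosome, had 1146 and 0 counts in the same libraries. Both animals carry the same genotype label, so the genotype groups do not depend on this, and values without both are given beside the results. Cerebellar markers were present in every library, with Purkinje cell genes summing to between 1810 and 2080 CPM and granule precursor genes to between 1962 and 2385 CPM. Choroid plexus genes summed to 44.1 CPM in SnoN cKO 2 and to between 1761 and 3397 CPM in the other libraries. CPM are the deposited counts divided by each library's total, after TMM scaling of the totals (trimmed mean of M values), and brought to a common base.

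Skil, the targeted gene, stood at 89.5, 87.5 and 88.9 CPM in wild type 1, 2 and 3 and at 76.0, 74.7 and 77.5 CPM in SnoN cKO 1, 2 and 3. The groups did not overlap, and transcript remained in every knockout library. Its log2 fold change was -0.22 (SE 0.04), with an adjusted p of 0.637 by edgeR's quasi-likelihood test with Benjamini-Hochberg adjustment over all genes.

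The coding sequences show how far the subunits are related, which bears on whether short reads can be assigned to a single member. The stretch of 7 codons below lies in the third membrane segment, which lines the channel pore and is among the most conserved parts of ionotropic glutamate receptors. It encodes the same residues in all 6 members, and capitals mark the bases that differ from Grin1. All are given 5′ to 3′ on the minus strand, where every member lies, in the GRCm38 build with GENCODE M21 annotation: exon 15 of Grin1 at chr2:25297202-25297222, exon 8 of Grin2a at chr16:9653450-9653470, exon 10 of Grin2b at chr6:135772247-135772267, exon 9 of Grin2c at chr11:115253752-115253772, exon 8 of Grin2d at chr7:45854282-45854302 and exon 3 of Grin3a at chr4:49770473-49770493.
Grin1: tacactgccaacctggcagcc
Grin2a: tacacAgccaacctggcTgcc
Grin2b: tacactgccaacTtAgcCgcc
Grin2c: tacacGgccaaTctggcagcc
Grin2d: taTacAgccaaTctggcTgcc
Grin3a: tacacAgcGaacTtggcTgcT
Even in this stretch of 21 bases the members differ from Grin1 at between 2 bases (Grin2a and Grin2c) and 5 bases (Grin3a).

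Over the whole transcripts, no stretch of 50 bases was shared between members. The encoded proteins of Grin2a and Grin2b are identical at 56.1% of aligned positions and those of Grin2c and Grin2d at 56.0%, while other GluN2 pairs range from 43.4% to 46.4%. Grin1 and Grin3a share between 25.0% and 27.1% with every other member. Some exons do overlap other genes: 13.5% of the merged exon length of Grin1 overlaps Grin1os, an antisense transcript, and 9.66% of that of Grin2d overlaps Gm45441. The library kit does not record strand, so reads of Grin1 and Grin1os cannot be told apart there. Grin1os itself had between 43 and 68 counts per library, against 1404 to 1840 for Grin1. Of the stretches of 50 bases in Grin2a, 11.6% also occur in other genes, among them Gm7328, and its low count is uncertain to that extent.

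Levels of different members were compared per length, since longer transcripts collect more reads. Per kilobase of coding sequence in wild type libraries, Grin2b was highest at 46.4 ± 1.77 CPM (SD, n = 3), followed by Grin1 at 41.5 ± 1.32, Grin3a at 22.8 ± 0.885, Grin2d at 14.8 ± 1.76, Grin2c at 3.74 ± 0.392 and Grin2a at 0.804 ± 0.150 CPM per kilobase. No neighbours in this order overlapped in their wild type ranges. In SnoN cKO the order was the same, at 40.8 ± 3.42, 37.1 ± 1.15, 23.3 ± 1.4, 12.5 ± 1.29, 3.61 ± 0.529 and 0.692 ± 0.0322 CPM per kilobase, and the ranges of Grin2b and Grin1 overlapped there. Grin2c and Grin2a, the genes that mark granule neuron maturation, stood below the other 4 in every library.

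Part of that order depends on the length used. Per kilobase of merged exons, which include long untranslated regions, Grin1 was highest in wild type at 12.3 ± 0.391 CPM per kilobase. Grin2d at 8.82 ± 1.05, Grin2b at 8.31 ± 0.316 and Grin3a at 6.33 ± 0.246 CPM per kilobase came next, and the first pair overlapped. Grin2c at 2.76 ± 0.290 and Grin2a at 0.197 ± 0.0368 CPM per kilobase were again lowest. The transcript ends in use in these cells were not measured. The rank of Grin2b against Grin1 and Grin2d, and that of Grin3a against Grin2d, therefore rests on the length chosen.

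**Figure D1:**
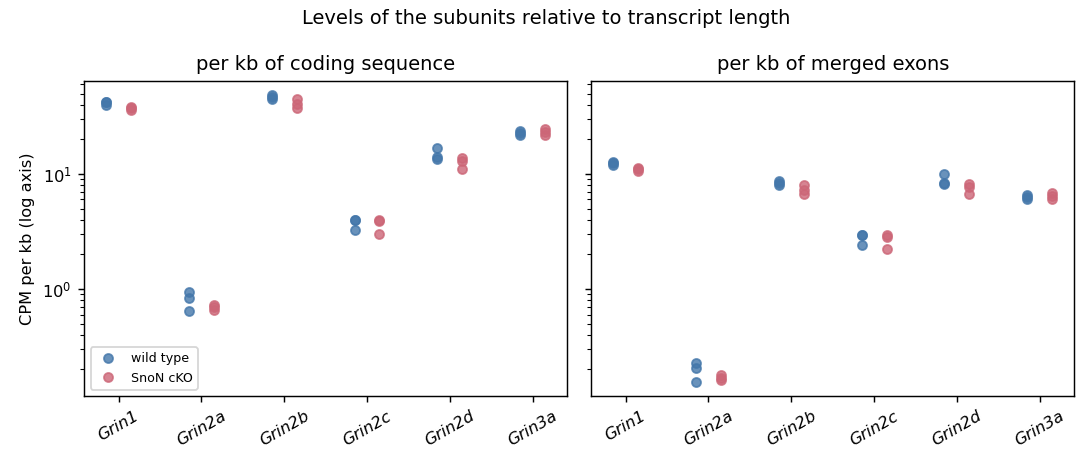
CPM per kilobase (log axis) of each subunit gene, per kilobase of coding sequence (left) and of merged exons (right); each point is 1 library, wild type in blue and SnoN cKO in red. Grin2a and Grin2c sit lowest in both panels. Grin2b has the highest mean on the left and Grin1 on the right, where the mean of Grin2d also lies above that of Grin2b.

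Among the GluN2 genes alone, Grin2b held 70.6% ± 3.0 (SD, n = 3) of the length-corrected signal in wild type and 70.8% ± 1.76 in SnoN cKO, per coding length. Grin2d held 22.5% ± 2.48 and 21.8% ± 1.34, Grin2c 5.70% ± 0.612 and 6.25% ± 0.526, and Grin2a 1.22% ± 0.215 and 1.21% ± 0.157. For each gene the means of the genotypes were closer than the larger SD on this basis. Per merged exon length, Grin2d held 43.8% and Grin2b 41.5% in wild type, and 42.4% and 41.5% in SnoN cKO. Grin2c held 13.8% ± 1.15 in wild type and 15.1% ± 0.932 in SnoN cKO (SD, n = 3 each) on that basis, a gap wider than either SD, with overlapping libraries (12.5% to 14.8% against 14.1% to 15.9%). The share of Grin2a was 0.978% and 0.971%.

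Of the 6 members, 5 had a lower mean in SnoN cKO, and 0 passed the genotype test. The background was 0% here, since 0 of 15457 genes passed at an adjusted p of 0.05. The smallest adjusted p over all genes was 0.637 by edgeR's quasi-likelihood test with Benjamini-Hochberg adjustment. At an unadjusted p under 0.05 the same fit held 496 higher and 691 lower genes. limma-voom called 0 genes. DESeq2 called 4, none of them a member, but it gave no adjusted p for 5 of 6 members. Grin2b, the only member with an adjusted p from DESeq2, was at 0.168. A negative log2 fold change was found in 51% of all genes tested. The median over the members was -0.17 on the log2 scale, and over all genes it was -0.002. Unadjusted p-values under 0.05 were found for 3 of 6 members, all lower, where 4.47% of all genes were lower at that level. In 2 of 6 members the SnoN cKO libraries all lay below the wild type libraries, where 6.73% of all genes did so. The members were chosen with earlier results of these data known, so these shares are no support for a change in the subunits. In bulk tissue, fewer cells of a type and less RNA per cell cannot be told apart.

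**Figure D2:**
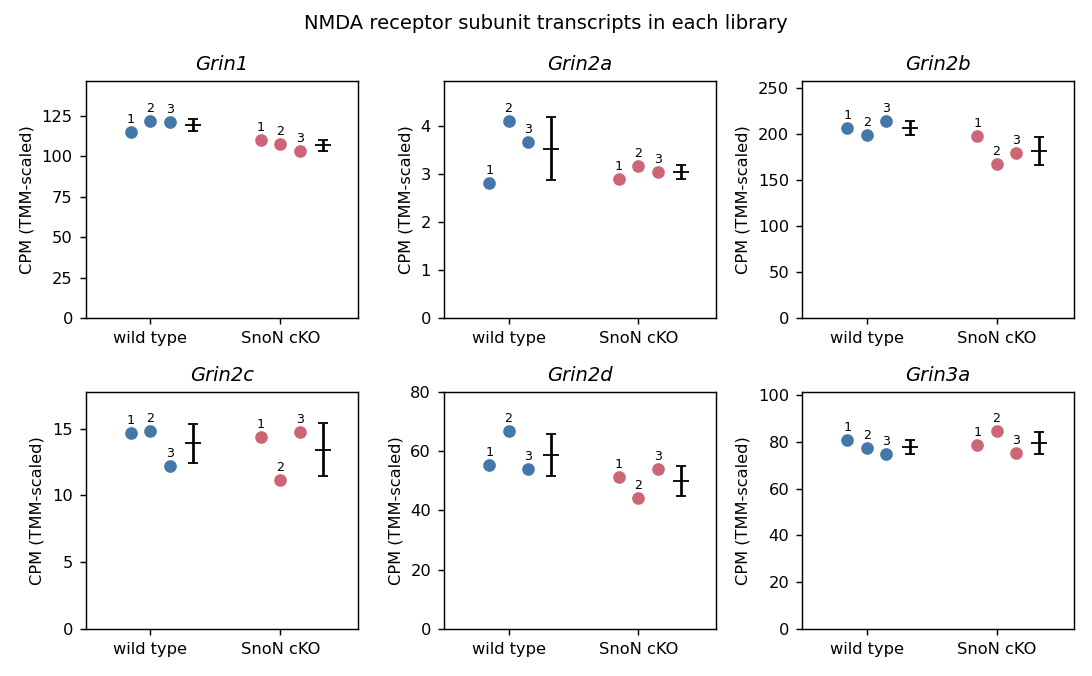
CPM of each subunit gene in the 6 libraries, numbered by replicate, with the mean and SD of each genotype as bars beside the points; each panel has its own scale from 0. Grin1 and Grin2b have no overlap between genotypes, Grin2d overlaps by a narrow margin, and Grin2a, Grin2c and Grin3a overlap.

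Grin1, the gene of the obligatory subunit, stood at 115.3, 122.2 and 121.4 CPM in wild type 1, 2 and 3 and at 110, 107.5 and 103.4 CPM in SnoN cKO 1, 2 and 3. All knockout libraries lay below all wild type libraries, and SnoN cKO 3 was the lowest. The means were 119.6 ± 3.8 and 107 ± 3.31 CPM (SD, n = 3 each), a difference of -10.6%. The log2 fold change was -0.16 (SE 0.05, 95% interval -0.27 to -0.06). Its unadjusted p of 0.00656 ranked 116 of all genes, and its adjusted p was 0.637 by edgeR's quasi-likelihood test with Benjamini-Hochberg adjustment. Grin1 is on chromosome 2 (GRCm38, chr2:25291181-25319187).

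Grin2b, the gene of the early GluN2 subunit, stood at 205.9, 198.7 and 214.4 CPM in the wild type libraries and at 197.8, 167.7 and 179 CPM in the SnoN cKO libraries. The gap between the groups was narrow, since SnoN cKO 1 lay just under wild type 2, and SnoN cKO 2 was the lowest. The means were 206.4 ± 7.85 and 181.5 ± 15.2 CPM (SD, n = 3 each), a difference of -12.1%. The log2 fold change was -0.19 (SE 0.06, 95% interval -0.32 to -0.05), with an unadjusted p of 0.0117 and an adjusted p of 0.637 by edgeR's quasi-likelihood test. Without wild type 3 the unadjusted p was 0.0508. Grin2b spans chr6:135713233-136173511.

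Grin2d, the gene of the GluN2 subunit with the slowest channel closing, stood at 55.5, 66.8 and 54.0 CPM in the wild type libraries and at 51.1, 44.2 and 54.1 CPM in the SnoN cKO libraries. Wild type 2 was above and SnoN cKO 2 below all others, and SnoN cKO 3 reached just past wild type 3. The means were 58.8 ± 6.97 and 49.8 ± 5.10 CPM (SD, n = 3 each), a difference of -15.2%. The log2 fold change was -0.24 (SE 0.09, 95% interval -0.45 to -0.03), with an unadjusted p of 0.0296 and an adjusted p of 0.637 by edgeR's quasi-likelihood test. This value leaned on single libraries: it was -0.13 without wild type 2 (unadjusted p of 0.158) and -0.16 without SnoN cKO 2 (unadjusted p of 0.0962). Without SnoN cKO 1 the unadjusted p was 0.0518, at a log2 fold change of -0.26. Grin2d spans chr7:45831883-45878378.

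The genes of the subunits that mark granule neuron maturation were low, and their groups overlapped. Grin2a had only 36, 62 and 47 counts in the wild type libraries and 37, 47 and 52 in the SnoN cKO libraries, that is 2.82, 4.12 and 3.66 CPM against 2.90, 3.18 and 3.05 CPM. All knockout libraries fell inside the wild type range. Its log2 fold change was -0.22 (SE 0.19), with an adjusted p of 0.765 by edgeR's quasi-likelihood test, and the 95% interval of -0.64 to 0.20 leaves its direction undetermined at this depth. Without wild type 1 its log2 fold change was -0.35, and without wild type 2 it was -0.08. Grin2a spans chr16:9567898-9995560.

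Grin2c stood at 14.7, 14.8 and 12.2 CPM in the wild type libraries and at 14.4, 11.2 and 14.7 CPM in the SnoN cKO libraries. Each genotype had a pair of higher libraries and a single lower one, wild type 3 and SnoN cKO 2. The log2 fold change was -0.05 (SE 0.13, 95% interval -0.34 to 0.24), with an adjusted p of 0.928 by edgeR's quasi-likelihood test. Without SnoN cKO 2 its sign turned, to 0.06. Grin2c spans chr11:115249169-115267243.

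Grin3a, the gene of the early calcium-limiting subunit, stood at 80.8, 77.3 and 74.8 CPM in the wild type libraries and at 78.8, 84.5 and 75.0 CPM in the SnoN cKO libraries. Its groups overlapped almost fully, and SnoN cKO 2, lowest for Grin2b and Grin2d, was highest here. The log2 fold change was 0.03 (SE 0.06, 95% interval -0.09 to 0.16), with an adjusted p of 0.889 by edgeR's quasi-likelihood test. Without SnoN cKO 2 it was -0.02. Grin3a spans chr4:49661611-49845744. The other GluN3 gene, Grin3b, is not one of the 6 and had between 10 and 25 counts per library.

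**Figure D3:**
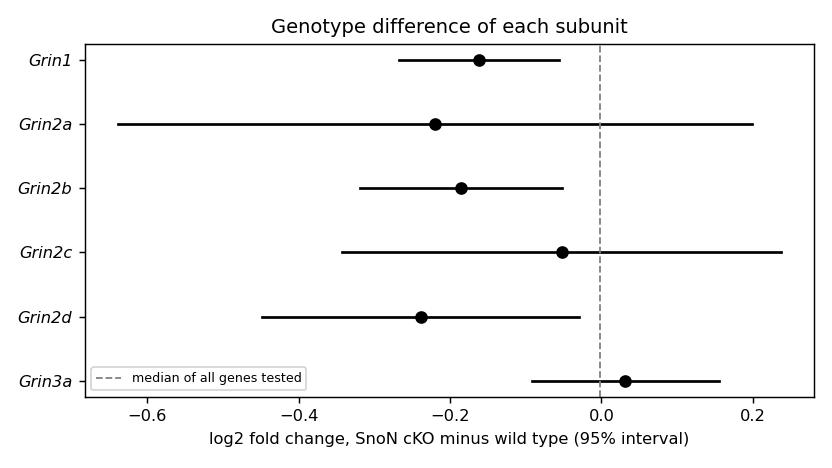
Log2 fold change of each subunit gene, SnoN cKO minus wild type, as points with 95% intervals as bars; the dashed line is the median of all genes tested. The intervals of Grin1, Grin2b and Grin2d lie below 0 before adjustment for all genes, and those of Grin2a, Grin2c and Grin3a span it.

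With SnoN cKO 1 and SnoN cKO 2 both left out, a choice made after the sex-linked genes were seen, the log2 fold changes were -0.21 for Grin1, -0.21 for Grin2b, -0.12 for Grin2d, -0.22 for Grin2a, 0.08 for Grin2c and -0.05 for Grin3a. That fit has 1 knockout library, SnoN cKO 3, which is assumed to vary like the wild types. Its counts stood apart from those of every other library, with a chi-square per degree of freedom between 30.9 and 56.3. The highest value for any other pair of libraries was 19.6. The cause was not tested.

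Ratios within a library do not depend on scaling, and 4 were compared between genotypes by two-sided exact permutation tests, in which 3 against 3 libraries cannot give a p under 0.1. The log2 count ratio of Grin3a to Grin1 was -0.51, -0.66 and -0.70 in wild type and -0.48, -0.35 and -0.46 in SnoN cKO. The groups did not overlap, with Grin3a higher relative to Grin1 in each knockout library than in any wild type library, and wild type 1 and SnoN cKO 1 were the closest pair. The difference was 0.19, with an exact permutation p of 0.1, the smallest possible, and 0.4 after Benjamini-Hochberg adjustment over the 4 ratios. Grin2c to Grin2b, the ratio that moves with granule neuron maturation, was -3.81, -3.75 and -4.13 in wild type and -3.78, -3.91 and -3.60 in SnoN cKO. These groups overlapped, and the difference was 0.13 (exact permutation p of 0.5, adjusted 0.9). It rested on single libraries, at 0.013 without wild type 3, 0.051 without SnoN cKO 3 and 0.21 without wild type 2. The differences for Grin2a to Grin2b and Grin2d to Grin2b were -0.01 and -0.05 (exact permutation p of 0.9 and 0.8, adjusted 0.9 for both).

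Correlations between members over the 6 libraries were of mixed sign. Over 15 pairs Pearson's r of log2 CPM ranged from -0.56 to 0.78, and 0 pairs passed an exact permutation test after Benjamini-Hochberg adjustment. The pair with the highest r was Grin1 and Grin2b, with r of 0.78 (exact permutation p of 0.0792, adjusted 0.548) and rho of 0.77 (exact permutation p of 0.103, adjusted 0.771). Without wild type 2 and SnoN cKO 3 it was 0.86, and within genotypes, with the group means removed, it was 0.28. Grin2c and Grin2d had the highest rank correlation, with rho of 0.89 (exact permutation p of 0.0333, adjusted 0.5) and r of 0.70 (exact permutation p of 0.119, adjusted 0.548). Without wild type 3 and SnoN cKO 2 the r of that pair was 0.77, and within genotypes it was 0.80. The 6 libraries share their depth and tissue makeup across all pairs.

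The genes whose log2 CPM tracked each member most closely over the 6 libraries were sought among 11832 genes (11833 for Grin2a) with a mean of at least 5 CPM. For Grin1 they were Mapk8ip3 (r of 0.99), Abca3 and Atp8a2, and for Grin2b they were Nkrf (r of 0.99), Wdcp and Tunar. Grin2d was tracked by Srr, which encodes serine racemase, the enzyme that makes the co-agonist D-serine (r of 0.99), and by Sncb and Diras1. For Grin3a the closest were Ptdss2 (r of 0.99), Flna and Igsf9, for Grin2c they were Ssfa2 (r of 0.99), Msx1 and Ube2n, and for Grin2a they were Chpf (r of 0.99), Rph3a and Irf2. With so many genes over 6 libraries such values are common: between 44 and 343 genes per member had r above 0.9. These are descriptions with no test.

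Partner genes of the receptor were taken as 5 lists with 63 genes, of which 62 passed the filter. Of these, 44 (71.0%) had a negative log2 fold change, 10 (16.1%) had an unadjusted p under 0.05 and all of those were lower, and 0 passed the adjusted test. Over all genes tested, 51% were negative and 4.47% were lower at that level. The lists were chosen with earlier results of these data known, so shares above this background are no support for a change in the partners. The median log2 fold change was -0.04.

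The co-agonist list held 5 tested genes, all negative, with a median of -0.19. The size varied, and Slc1a4, the gene with the highest level in this list, was at -0.002 (SE 0.04) with overlapping groups. Slc6a9, which encodes the glycine transporter GlyT1, stood at 47.3, 47.9 and 49.8 CPM in the wild type libraries and at 38.7, 39.2 and 43.6 CPM in the knockouts, with no overlap. Its log2 fold change was -0.25 (SE 0.06), with an unadjusted p of 0.00180 and an adjusted p of 0.637 by edgeR's quasi-likelihood test. Srr stood at 49.4 ± 2.46 CPM in wild types and 45.9 ± 1.61 CPM in knockouts (SD, n = 3 each). Slc6a5, the glycine transporter of inhibitory neurons, and Slc7a10, a D-serine and small neutral amino acid transporter, had log2 fold changes of -0.24 (SE 0.13) in the former and -0.19 (SE 0.14) in the latter, with overlapping groups. Dao, the gene of D-amino acid oxidase, had at most 2 counts in any library and was not tested.

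In the scaffold list 12 of 17 genes were negative, with a median of -0.02, and 2 had an unadjusted p under 0.05. Shank1, a scaffold protein of the postsynaptic density, stood at 265.5, 277.6 and 266.6 CPM in the wild type libraries and at 253.2, 240.5 and 222.9 CPM in the knockouts, with no overlap and with SnoN cKO 3 lowest. Dlg4, the gene of PSD-95, which anchors GluN2 subunits at the synapse, stood at 182.7, 192.8 and 185.7 CPM against 176.2, 159.9 and 173.6 CPM, again with no overlap. Their log2 fold changes were -0.18 (SE 0.05) and -0.14 (SE 0.05), each with an adjusted p of 0.637 by edgeR's quasi-likelihood test. Homer3, a Homer protein abundant in Purkinje cells, was the positive gene named from this list, at 0.10 (SE 0.06).

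Among enzymes and calcium signalling genes 14 of 20 were negative, with a median of -0.05, and 5 had an unadjusted p under 0.05. Rasgrf2, a calcium-activated exchange factor for Ras, stood at 17.1, 20.1 and 14.8 CPM in the wild type libraries and at 12.3, 6.09 and 12.6 CPM in the knockouts. Camk2a, the alpha subunit of the calcium/calmodulin kinase that binds GluN2B, stood at 32, 28.6 and 26.4 CPM against 25.0, 24.4 and 23.9 CPM. Neither gene overlapped between genotypes, and the low value of Rasgrf2 in SnoN cKO 2 was well apart from the other knockouts. Their log2 fold changes were -0.75 (SE 0.23) and -0.25 (SE 0.08). The kinase gene Ptk2b was at -0.58 (SE 0.22) from a wild type mean of 4.59 ± 0.927 CPM (SD, n = 3).

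Transport genes had 5 of 6 negative values and a median of -0.08. Apba1, an adaptor between the kinesin Kif17 and its GluN2B cargo, stood at 250.1, 271.8 and 259.3 CPM in the wild type libraries and at 238.0, 189.8 and 236.9 CPM in the knockouts, with no overlap and with SnoN cKO 2 lowest. Kif17 itself was at 5.28 ± 0.940 and 4.04 ± 0.589 CPM (SD, n = 3 each), and its groups overlapped. Of the regulators of the developmental subunit change 8 of 14 were negative, with a median of -0.02. Bdnf, the neurotrophin that promotes Grin2c expression in cultured mouse granule neurons, stood at 2.58, 3.19 and 2.81 CPM in the wild type libraries and at 1.41, 2.30 and 1.23 CPM in the knockouts. These groups did not overlap, and the log2 fold change of Bdnf was -0.80 (SE 0.26), with an adjusted p of 0.637 by edgeR's quasi-likelihood test. Its receptor gene Ntrk2 was at -0.10 (SE 0.06), Nfia at -0.08 (SE 0.07) and Nfatc4 at -0.08 (SE 0.08).

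**Figure D4:**
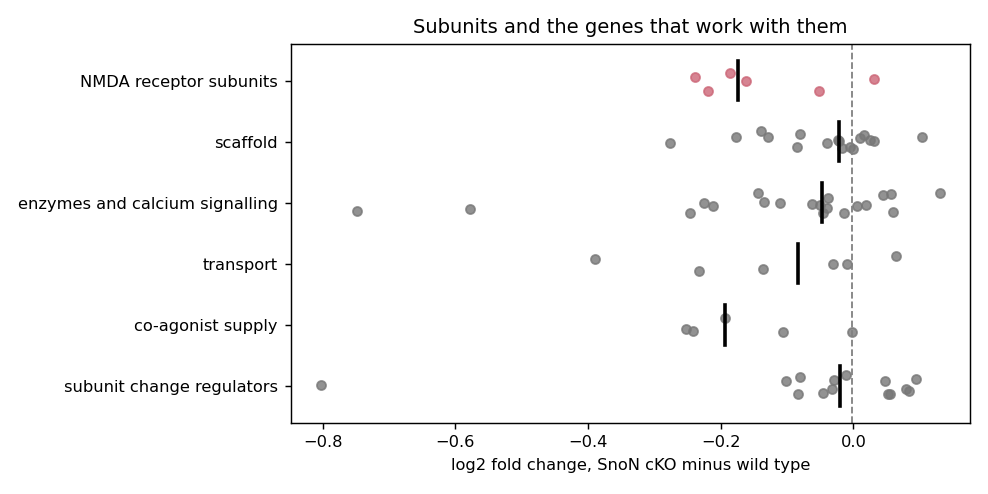
Log2 fold change, SnoN cKO minus wild type, of each subunit gene (red) and of each tested gene of the 5 partner lists (grey); black bars are list medians and the dashed line is the median of all genes tested. Medians of the subunits and the co-agonist genes lie at -0.17 and -0.19, and those of the other lists lie nearer to 0.

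Markers of tissue that also holds NMDA receptors differed between the libraries. Brainstem markers summed to 18, 24.9 and 12.7 CPM in the wild type libraries and to 8.54, 4.40 and 13.7 CPM in the knockouts, and 8 of the 8 tested of 11 were negative. Hoxa5, Hoxb3, Hoxb4, Hoxc4 and Hoxd3 were at 0 counts in SnoN cKO 2, and Hoxb5 was at 0 in SnoN cKO 1. All of these genes were near the floor, with at most 38 counts in any library, and Hoxb4 had between 4 and 16 counts in the libraries where it was seen. Markers of unipolar brush cells and cerebellar nuclei summed to 259.5, 247.4 and 219.3 CPM in the wild type libraries and to 198.2, 137.1 and 204.8 CPM in the knockouts, with no overlap. Of these markers 7 of 7 were negative, with a median of -0.36, but unevenly so. Tbr1 was at -0.04 (SE 0.20) and Eomes at -0.09 (SE 0.10), both with overlapping groups. Lhx9 was at -1.96 (SE 0.59), from a variable wild type mean of 10.8 ± 10.1 CPM (SD, n = 3). The wild type mean of Slc17a6, the gene with the highest level among these markers, was 120.5 ± 3.67 CPM (SD, n = 3). Its knockout mean was 93.6 ± 17.9 CPM (SD, n = 3), so a large part of the sum was this gene. Slc17a6, Lhx2 and Lhx9 were lower without overlap, whereas Meis2 and Lmx1a overlapped, like Tbr1 and Eomes. Which cells the sum follows was not tested.

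Grin2b and Grin2d, like both marker sums, were lowest in SnoN cKO 2, whereas Grin1 was lowest in SnoN cKO 3. Grin1, Grin2d and the brainstem sum were highest in wild type 2. Among the wild types Grin2b ran opposite to the brainstem sum. Grin2b was highest in wild type 3 (214.4 CPM), where both marker sums were lowest among wild types, and lowest in wild type 2 (198.7 CPM). The part of these markers in the subunit values was not tested. Granule precursor markers had 8 of 8 positive log2 fold changes and summed to 1962, 1968 and 2128 CPM in the wild type libraries and to 2122, 2385 and 2062 CPM in the knockouts. Maturing granule neuron markers, of the cells in which Grin2a and Grin2c appear, summed to 1470, 1482 and 1701 CPM against 1556, 1591 and 1556 CPM. The precursor and maturing sums both overlapped between genotypes. The maturing markers were mixed, with 4 of 9 negative. Without overlap, Vsnl1 at -0.32 (SE 0.10) and Kcnd2 at -0.09 (SE 0.04) were lower, and Cbln3 at 0.31 (SE 0.10) was higher.

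Among the glial lists, astrocyte and Bergmann glia markers summed to 3379, 3306 and 3403 CPM in the wild type libraries and to 3545, 3700 and 3443 CPM in the knockouts. The knockout sums all lay above the wild type sums, with SnoN cKO 2 highest, and 6 of 8 markers were positive. The other 2 were negative. Slc1a2 had a log2 fold change of -0.16 (SE 0.05) with no overlap, and Gja1 one of -0.25 (SE 0.09) with overlapping groups. Myelin markers summed to 855.4, 883.4 and 856.3 CPM against 814.2, 652.8 and 867.5 CPM, and 5 of 5 were negative, 3 of them without overlap. Over all genes tested, 51% were negative and 6.73% were lower without overlap. The myelin sum overlapped between genotypes and was lowest in SnoN cKO 2, as were Grin2b and Grin2d. No marker of either list was at 0 in any library. The part of the granule, glial and myelin markers in the subunit values was not tested.

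**Figure D5:**
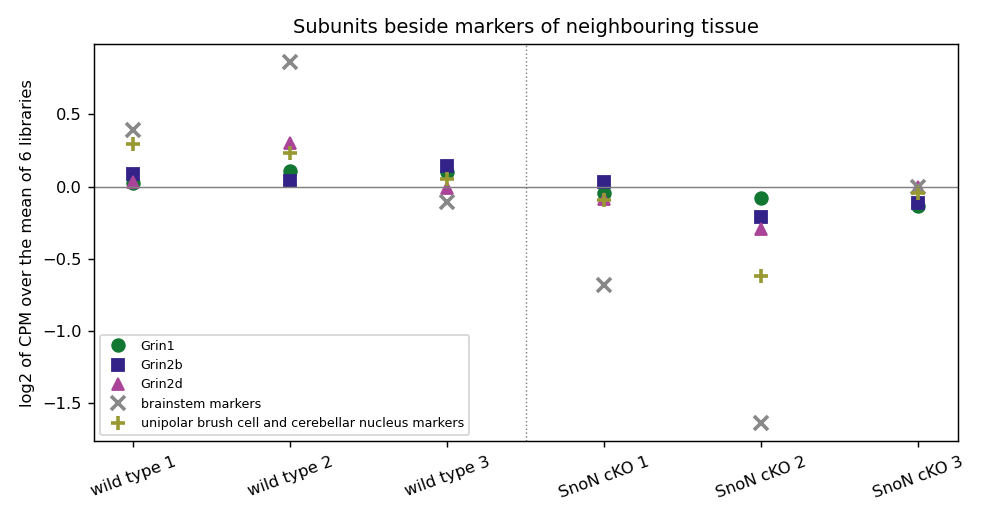
Log2 of the CPM of Grin1, Grin2b and Grin2d and of the summed brainstem and nucleus markers in each library, relative to the mean of the 6 libraries. SnoN cKO 2 has the lowest marker sums and the lowest Grin2b and Grin2d, while Grin1 is lowest in SnoN cKO 3. Among the wild types, Grin2b is highest in wild type 3, where both marker sums are lowest. Slc17a6 has the highest mean level of the genes in the nucleus sum.

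The labelled sex was tested with genotype in the model. Of the 6 members 0 passed by edgeR's quasi-likelihood test, where the background was 0.00647% (1 gene of 15457), and 0 had an unadjusted p under 0.05. The adjusted p was 0.9993 for each member. Among the members the largest difference was that of Grin2a, at -0.29 (SE 0.20), female minus male on the log2 scale. Xist was high in wild type 1 and SnoN cKO 2 (33319 and 37467 counts), where Ddx3y was at 0, and the reverse held in all other libraries. The test grouped the libraries by label, which the sex-linked genes contradict in SnoN cKO 1 and 2. Its outcome therefore does not compare females with males. Without both libraries only 1 female (wild type 1) and 1 knockout (SnoN cKO 3) remain, so that fit cannot decide on sex.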

How the data were processed

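The deposited table holds raw read counts, 1 column per library. The tools named in the submitters' processing notes are STAR 2.0.4b, featureCounts 1.4.5 and Subread without a version, and the genome build named there is mm9. The sources used here do not give the role of each tool or the gene annotation.

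Genes were taken by symbol. The identifier column did not match the symbol column: of 40254 identifiers found in GENCODE M21, 97 carried the deposited symbol, all within the first 98 entries. Xist, the Y-linked genes and tissue markers had counts that followed their symbols, so identifiers were not used. Coordinates, lengths and sequences come from GENCODE M21 on GRCm38 and may differ from the gene models that were counted. Entries repeating both symbol and counts were kept once. Of 41228 entries, 140 with counts were such repeats and held 0.465% of the counts.

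Genes were filtered with filterByExpr (minimum count 10), scaled by TMM and tested two-sided with edgeR 4.0.16 quasi-likelihood fits in R 4.3.3, by genotype without covariates. The Benjamini-Hochberg adjusted p had to be under 0.05. The script was tested on simulated data. Intervals use the test's degrees of freedom, and the common biological coefficient of variation was 9.71%. Alternatives used limma 3.58.1, DESeq2 1.42.0, other scalings and filters, covariates and omitted libraries. Exact permutation tests used SciPy 1.17.1, and proteins were aligned with MAFFT 7.526. No library repeated another (lowest chi-square per degree of freedom between a pair 2.79).

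The members and gene lists were chosen with earlier results of these data known. Named genes were the 6 members, Skil, the 3 genes tracking each member most closely, and up to 4 genes per partner list with the smallest p, of which 1 is not reported here. Grin3b, Grin1os, Dao, Slc1a4, Xist, Ddx3y and the single cell type markers, among them those at 0, were named after their values were seen. Replicate numbers did not pair the samples (same-number correlations of deviations -0.04, -0.32 and -0.18).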

Additional observations from a re-analysis of the deposited data

Results flagged for a closer look

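Grin2a was the member in which the labelled female knockout and every labelled male knockout lay on opposite sides of the wild types of the same labelled sex. The library labelled female in SnoN cKO stood 0.0811 CPM above its wild type counterpart, whereas both labelled male knockouts stood below both labelled male wild types, with a mean difference of -0.775 CPM. The difference between the sexes was not tested, there was 1 labelled female per genotype, and Grin2a had at most 62 counts in any library. The sex-linked genes contradicted the label in SnoN cKO 1 and SnoN cKO 2.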

How the results depend on the processing

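No member passed under any of the 15 alternatives, and 86 of 90 member log2 fold changes kept their direction. Over these alternatives Grin1 lay between -0.21 and -0.13 (unadjusted p under 0.05 in 15 of 15), Grin2b between -0.25 and -0.13 (14 of 15), Grin2d between -0.30 and -0.12 (10 of 15) and Grin2a between -0.35 and -0.08 (0 of 15). With 1 library left out at a time, Grin2c lay between -0.14 and 0.065 and Grin3a between -0.015 and 0.081, and the log2 ratio differences of Grin2a, Grin2d and Grin2c to Grin2b between -0.16 and 0.14, between -0.13 and 0.074 and between 0.013 and 0.21. Without SnoN cKO 1 and 2, chosen after the data were seen, Grin2c was at 0.078 and Grin3a at -0.052. The number of genes called by genotype was 0, and became 39 without the filter, 4 with DESeq2, 1 with labelled sex as a covariate and 7 without SnoN cKO 1 and 2; the cause was not tested. DESeq2 gave no adjusted p for 5 of 6 members. With the replicate number as a block (replicate block), the log2 fold changes were -0.16 for Grin1, -0.19 for Grin2b and -0.24 for Grin2d (unadjusted p of 0.0641), and 0 genes were called. The numbers did not pair the samples. Depth limits Grin2a most.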
